A study of Mus musculus with 6 samples.

Results

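Described here are 8 genes that respond to the nuclear receptor PPAR alpha and are not cytochromes, as measured in RNA from mouse liver macrophages: Ppara, Vnn1, Acnat2, Ehhadh, Acot1, Acot2, Pdk4 and Fabp1. They were picked by name from the 14918 genes of the deposited table, with their diet differences already known, so those differences are given as a description, with no p-value. All 8 were among the 14361 genes that passed the low-count filter. Vnn1 and Acnat2 passed it through the high fat diet libraries, because they held 5 or fewer counts in each normal diet library. The study compared C57BL/6 mice fed a high fat diet with C57BL/6 mice fed a normal diet. Feeding lasted 18 weeks in both groups and began when the mice were about 6 weeks old. Each group had 3 mice, and each of the 6 libraries was taken as 1 mouse. The sources used here do not give what the diets contained or how the macrophages were separated from the rest of the liver.

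PPAR alpha is a receptor for fatty acids and their derivatives that binds DNA together with a retinoid X receptor, at a repeat of a short half-site spaced by 1 base. In the liver it is best known from hepatocytes, where fasting, fibrate drugs or a fatty diet make it switch on genes for fatty acid binding, for peroxisomal and mitochondrial oxidation and for ketone body production. Macrophages carry the receptor too, and many of its target genes are also expressed in other cell types.

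Levels are given as CPM, counts of a gene relative to the TMM-scaled library total and multiplied to the usual CPM size. The totals lay between 17470439 and 23610956 counts. Markers of hepatocytes differed between the diets in these libraries, and their values belong beside each result that follows. Alb, which encodes serum albumin, stood at 5030, 3170 and 3080 CPM in high fat diet replicates 1 to 3 and at 350, 1710 and 1390 CPM in normal diet replicates 1 to 3. Every high fat diet library was above every normal diet library, and normal diet replicate 1 stood apart at the bottom. The log2 fold change of Alb was 1.71 ± 0.57 (SE, n = 3 per diet), and edgeR's quasi-likelihood test gave an adjusted p of 0.193. All 30 hepatocyte markers tested had a positive log2 fold change, with a median of 1.72, and none was at 0 in any library. None of the 30 was called by edgeR, 24 had an unadjusted p under 0.05, DESeq2 called 15 and limma voom 0. Their summed level lay between 6675 and 11060 CPM in high fat diet mice and between 797.9 and 3474 CPM in normal diet mice. Of the 12 Kupffer cell and macrophage markers, 0 were called by edgeR, DESeq2 or limma voom, 0 had an edgeR unadjusted p under 0.05, and the median log2 fold change was -0.04. Their summed level, 30570 to 36270 CPM against 27150 to 41880 CPM, overlapped between the diets, and none was at 0 in a library, so the labelled cell type was present in all 6. Clec4f, a lectin of Kupffer cells, stood at 6570 ± 813 CPM and 7920 ± 2250 CPM (SD, n = 3). Markers of other liver cells, 10 genes, were summed at 688.8 to 856.0 CPM against 863.7 to 1666 CPM, with a median log2 fold change of -0.7, 0 called by edgeR, 4 lower at an unadjusted p under 0.05 and 2 called lower by DESeq2 (Pecam1 and Dcn). In bulk RNA, more cells of a type and more RNA per cell cannot be told apart. The part of hepatocyte RNA in the differences of the 8 genes was not tested.

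Of the 8 genes, 6 had 3 high fat diet libraries that were all above the 3 normal diet libraries, and these were Ppara, Vnn1, Acnat2, Ehhadh, Acot1 and Fabp1. Over all genes tested, 25.3% had groups that did not overlap, 14.5% with the high fat diet higher and 10.8% with it lower. Vnn1 and Acnat2 were the 2 members called higher at an adjusted p of 0.05 by edgeR, where 0.634% of all genes were called, 0.446% higher and 0.188% lower. These counts restate how the genes were chosen and are no test of them. The called count also turned on single libraries, since it was 3 without normal diet replicate 2, with Ehhadh added, where 9.44% of all genes were called and 5.9% were called lower. It was 1 (Vnn1) without high fat diet replicate 1, where 4 of 14568 genes were called. Without normal diet replicate 3 it was also 1 (Vnn1), where 22 of 14564 genes were called. The count was 0 without high fat diet replicate 2, high fat diet replicate 3 or normal diet replicate 1, where 0, 2 and 0 of all genes were called. DESeq2 called 5 members (Vnn1, Acnat2, Ehhadh, Fabp1 and Ppara), where it called 8.08% of all genes, 4.96% higher and 3.12% lower.

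**Figure D1:**
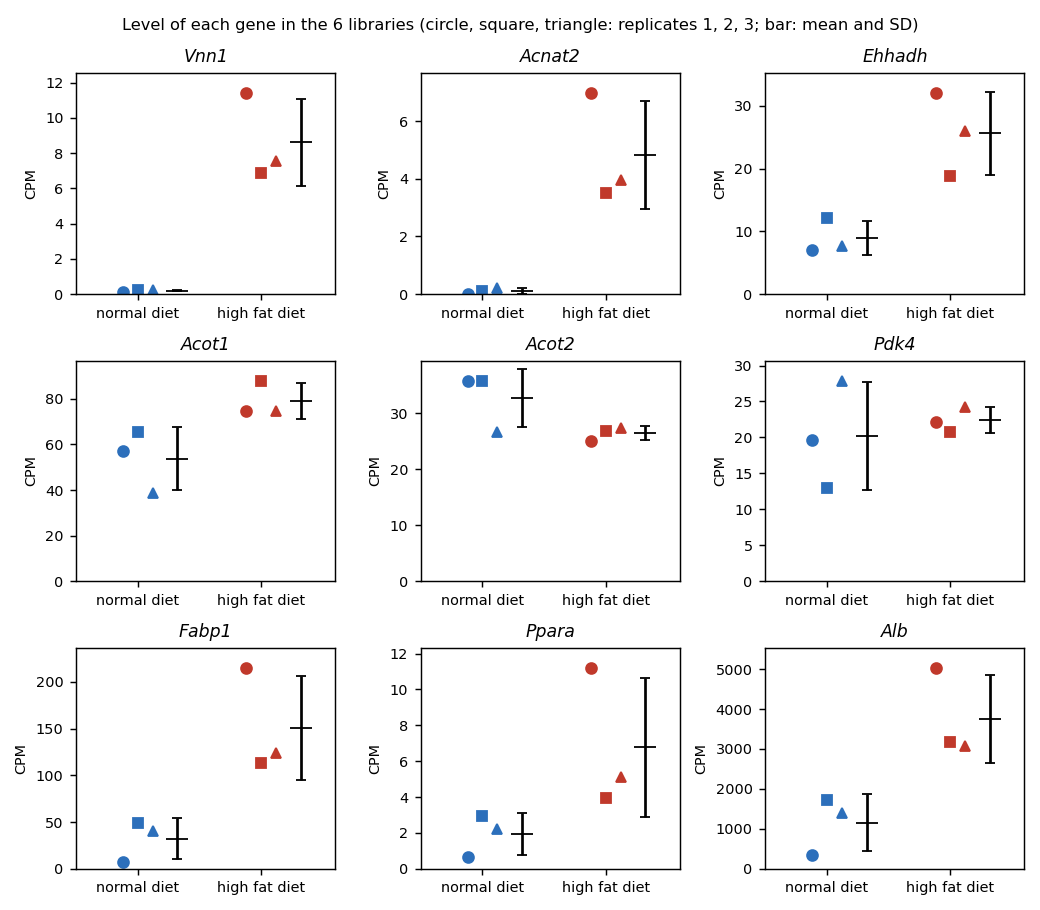
Level in CPM (vertical axis, from 0) of the 8 genes and Alb in each library, with circles, squares and triangles for replicates 1, 2 and 3 of a diet and bars for the mean and SD of 3 libraries. Vnn1 and Acnat2 were close to 0 in all 3 normal diet libraries, while the points of the diets overlapped for Acot2 and Pdk4.

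Ppara encodes the receptor itself (ENSMUSG00000022383, mm10 chr15:85734983-85802819, plus strand). It stood at 11.2, 3.96 and 5.14 CPM in the high fat diet libraries and at 0.656, 2.95 and 2.24 CPM in the normal diet libraries. High fat diet replicate 1 was the highest and normal diet replicate 1 the lowest, as for Alb, and the groups did not overlap. The log2 fold change was 1.8 ± 0.62 (SE), a 3.49-fold difference between the diets. It was 1.21 without high fat diet replicate 1 and 0.8 without replicate 1 of both diets. Counts of Ppara per 1000 Alb counts were 2.24, 1.25 and 1.67 on the high fat diet and 1.88, 1.72 and 1.61 on the normal diet. On this scale the groups overlapped, and normal diet replicate 1 no longer stood apart.

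Vnn1 encodes vanin 1, a pantetheinase anchored to the cell surface that releases cysteamine and pantothenic acid (ENSMUSG00000037440, mm10 chr10:23894688-23905343, plus strand). It held 240, 121 and 180 counts in the high fat diet libraries against 3, 4 and 5 in the normal diet libraries. These counts correspond to 11.4, 6.85 and 7.58 CPM against 0.151, 0.211 and 0.249 CPM. All 3 high fat diet libraries were far above all 3 normal diet libraries, and the libraries within a diet lay close together. The log2 fold change was 5.36 ± 0.35 (SE), and it lay between 5.09 and 5.53 when each library was left out in turn. From the summed counts, 541 against 12, the ratio was 42.6 with an exact 95% binomial interval from 24.2 to 82.9, which covers counting error only. Normal diet replicate 1 was the lowest library for Vnn1, as for Alb. At 3, 4 and 5 counts, the size of this drop cannot be compared with that of Alb.

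Acnat2 encodes a member of the acyl-CoA amino acid N-acyltransferase family, enzymes that conjugate acyl groups to amino acids (ENSMUSG00000060317, mm10 chr4:49379840-49408151, minus strand). It held 146, 62 and 94 counts on the high fat diet and 0, 2 and 4 on the normal diet. In CPM these were 6.96, 3.51 and 3.96 against 0.0, 0.105 and 0.199. The groups were as far apart as for Vnn1, and high fat diet replicate 1 was again the highest. The log2 fold change was 5.48 ± 0.67 (SE), with values between 4.91 and 6.38 when each library was left out. The summed counts of 302 and 6 gave a ratio of 47.5 with an exact 95% binomial interval from 21.6 to 131. Acnat2 has a near copy, Acnat1, and 14.1% of the 100-base windows of its transcripts, 245 of 1740, also occur in Acnat1. The sources used here do not say how reads matching several genes were counted, so reads of that share could have been assigned to either gene. A stretch of coding sequence around the end of their longest identical run (200 bases) is shown from GRCm38, because it is where the copies can and cannot be told apart, with capitals at the 2 bases that differ between them. Both lie on the minus strand, Acnat2 at chr4:49381847-49381923 and Acnat1 at chr4:49449221-49449297.
Acnat2: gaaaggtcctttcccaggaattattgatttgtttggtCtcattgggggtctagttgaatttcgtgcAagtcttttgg
Acnat1: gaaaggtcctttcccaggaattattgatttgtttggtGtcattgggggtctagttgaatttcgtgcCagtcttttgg
Acnat1 itself stood at 2.75 ± 1.08 CPM in high fat diet mice and 1.13 ± 0.537 CPM in normal diet mice (SD, n = 3), a log2 fold change of 1.28 ± 0.44 with an edgeR adjusted p of 0.192. It is named here after its values were seen. The gene model of Acnat2 also overlaps the pseudogene Gm12451 on the opposite strand, and no strand-keeping step is named in the labels' protocols.

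Ehhadh encodes the peroxisomal bifunctional enzyme, which carries out the hydration and dehydrogenation steps of peroxisomal beta-oxidation (ENSMUSG00000022853, mm10 chr16:21761287-21787844, minus strand). It stood at 32.0, 18.8 and 26.0 CPM in the high fat diet libraries and at 7.11, 12.1 and 7.71 CPM in the normal diet libraries. The groups did not overlap, and the lowest high fat diet library was replicate 2. On the log2 scale the fold change was 1.51 ± 0.27 (SE), a 2.85-fold difference, with values between 1.3 and 1.78 when each library was left out. Per 1000 Alb counts the values were 6.36, 5.93 and 8.42 on the high fat diet and 20.3, 7.06 and 5.56 on the normal diet. Here the groups overlapped, with normal diet replicate 1 far above the other 5 libraries. The log2 difference of this ratio was -0.45, and 0.12 without normal diet replicate 1.

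Acot1 and Acot2 encode thioesterases that split long-chain acyl-CoA into free fatty acid and coenzyme A, Acot1 in the cytosol and Acot2 in mitochondria. They are neighbours on chromosome 12, Acot2 (ENSMUSG00000021226) at mm10 chr12:83987861-83993873 and Acot1 (ENSMUSG00000072949) at chr12:84009502-84017670, both on the plus strand. Of the 100-base windows of Acot1 transcripts, 12.4% (476 of 3853) also occur in other genes, 359 of them in Acot2, and the share was 17.1% (359 of 2097) for Acot2. A stretch at the end of their longest identical coding run, 273 bases, is shown from GRCm38 for the same reason as above, with capitals at the 5 bases that differ. It lies at chr12:84017239-84017318 in Acot1 and at chr12:83992961-83993040 in Acot2, on the plus strand.
Acot1: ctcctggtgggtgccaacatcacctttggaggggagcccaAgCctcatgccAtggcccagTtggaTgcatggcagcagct
Acot2: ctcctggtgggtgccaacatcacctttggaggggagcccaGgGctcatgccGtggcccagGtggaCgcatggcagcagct
Acot1 stood at 74.4, 87.9 and 74.7 CPM in high fat diet mice and at 57.0, 65.6 and 38.7 CPM in normal diet mice. Its groups did not overlap, but the gap between them, from 65.6 to 74.4 CPM, was smaller than the spread among the normal diet libraries. Its log2 fold change was 0.56 ± 0.19 (SE), and 0.37 without normal diet replicate 3. Acot2 stood at 25.0, 26.8 and 27.4 CPM in high fat diet mice and at 35.8, 35.7 and 26.7 CPM in normal diet mice. It was the only member with a negative log2 fold change, -0.31 ± 0.13 (SE), and its groups overlapped because normal diet replicate 3 lay among the high fat diet libraries. For both thioesterases, normal diet replicate 1 was level with or close to normal diet replicate 2 (ratio of replicate 2 to 1 of 1.15 for Acot1 and 0.998 for Acot2), whereas Alb was 4.9-fold higher in replicate 2. The values of this pair are uncertain to the extent that their shared reads were split or dropped in counting.

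Pdk4 encodes pyruvate dehydrogenase kinase 4, which switches off pyruvate dehydrogenase and so spares glucose when fat is burned (ENSMUSG00000019577, mm10 chr6:5483351-5496309, minus strand). It stood at 22.1, 20.8 and 24.3 CPM in high fat diet mice and at 19.7, 13.0 and 27.9 CPM in normal diet mice. The highest and the lowest library were both on the normal diet, so the groups overlapped completely. The fitted log2 difference was 0.15 ± 0.26 (SE), and it turned to -0.09 without normal diet replicate 2 and was 0.46 without normal diet replicate 3. A diet difference in Pdk4 was thus not detectable beyond the spread of the normal diet libraries.

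Fabp1 encodes the liver fatty acid binding protein, which carries fatty acids through the cytosol of hepatocytes (ENSMUSG00000054422, mm10 chr6:71199827-71205023, plus strand). It stood at 215, 113 and 124 CPM in high fat diet mice and at 7.47, 48.5 and 40.7 CPM in normal diet mice. The groups did not overlap, and the order of the libraries at both ends was that of Alb, with high fat diet replicate 1 highest and normal diet replicate 1 lowest. On the log2 scale the fold change was 2.23 ± 0.66 (SE), a 4.68-fold difference, and it was 1.4 without replicate 1 of both diets. Between normal diet replicates 2 and 1 the ratio was 6.5 for Fabp1 and 4.9 for Alb. Counts per 1000 Alb counts were 42.8, 35.8 and 40.3 on the high fat diet and 21.4, 28.3 and 29.4 on the normal diet. On this scale all 3 high fat diet libraries stayed above all 3 normal diet libraries, with a log2 difference of 0.6. Fabp1 was the one member whose promoter in the RefSeq table (GRCm38.p6, 250 bases before to 50 after the start) held a match to the receptor's repeat, searched on both strands as AGGNCANAGGNCA. The match, TGACCTATGGCCT read on the plus strand, lies between 67 and 55 bases before the RefSeq start, and 125 of 32851 promoters in the table (0.381%) hold such a match. The stricter repeat AGGTCANAGGTCA had no match in the members' promoters and was found in 13 of the 32851 (0.0396%). The half-site AGGTCA, which overlaps the longer pattern, occurs in 16.3% of promoters. The table held 8 promoters for 7 of the members and none for Vnn1, which was therefore not searched. For the others, no match says only that those letters are not in that window. The sequence upstream of the deposited gene start is shown because it holds this match, in capitals, at chr6:71199629-71199826 on the plus strand of GRCm38.p6.
Fabp1 upstream: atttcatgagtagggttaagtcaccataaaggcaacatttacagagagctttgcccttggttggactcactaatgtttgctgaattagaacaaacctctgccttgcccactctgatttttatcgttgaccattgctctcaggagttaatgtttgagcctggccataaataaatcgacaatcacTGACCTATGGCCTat

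Relative to Alb, the 8 genes fell into separate patterns. Counts of Vnn1 per 1000 Alb counts were 2.27, 2.16 and 2.46 on the high fat diet and 0.433, 0.123 and 0.179 on the normal diet, and those of Acnat2 were 1.38, 1.11 and 1.28 against 0.0, 0.0614 and 0.144. For both genes every high fat diet library was above every normal diet library by a wide margin. The normal diet ratios rest on 3, 4 and 5 counts of Vnn1 and on 0, 2 and 4 counts of Acnat2. The log2 difference of the ratio was 3.26 for Vnn1 and 3.71 for Acnat2, with 0.5 counts added before the log. For Acnat2 it fell to 2.7 with 2 counts added. The 29 hepatocyte markers other than Alb had a median of -0.04 and a range from -1.43 to 0.74 on this scale, so Vnn1 and Acnat2 lay outside the range of that list and Fabp1 and Ppara, at 0.6 and -0.07, inside it. Because the 8 genes were chosen with their diet differences known, these positions are no test of them. Among all genes tested the median was -1.96, and 7 genes had a larger difference than Vnn1 and 5 a larger one than Acnat2. Acot1, Pdk4 and Acot2, at -1.38, -1.75 and -2.26, lay near the value of the median gene (-0.6, -1.02 and -1.47 without normal diet replicate 1), and Ehhadh, at -0.45, lay between them and Alb. Groups that did not overlap with the high fat diet higher were found for 0.801% of genes on the ratio scale, and for Vnn1, Acnat2 and Fabp1 among the members. Of the 30 hepatocyte markers 8 did not overlap in that direction either, and neither did 4 of the 57 other targets of the receptor described further on. Acot1 and Acot2 did not overlap in the other direction, as was the case for 85.9% of genes, and the nearest libraries of Acot1 were as close as 27.7 and 27.9 counts per 1000 Alb counts.

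**Figure D2:**
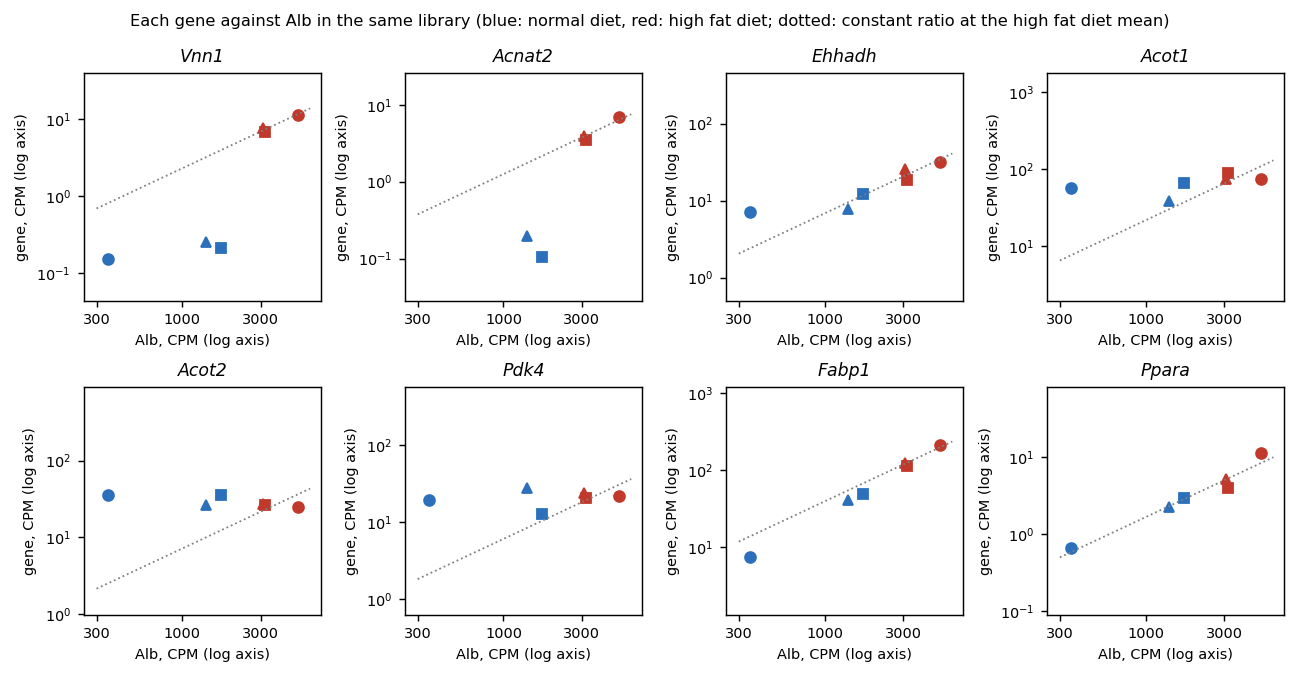
Level of each gene in CPM against Alb in CPM in the same library, both on log axes, with blue for the normal diet, red for the high fat diet and circles, squares and triangles for replicates 1, 2 and 3. The dotted line marks a constant ratio to Alb at the high fat diet mean, Acnat2 in normal diet replicate 1 (0 counts) is not drawn, and the normal diet points of Vnn1 and Acnat2 lie far below the line while those of Ppara lie near it.

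The replicate libraries gave a further view, since hepatocyte RNA varied within each diet. Between high fat diet replicates 1 and 2, Alb differed 1.59-fold, and Vnn1 (1.67), Ehhadh (1.7), Fabp1 (1.9), Acnat2 (1.98) and Ppara (2.84) were also higher in replicate 1. For Acot1 (0.847), Acot2 (0.933) and Pdk4 (1.06) the same ratio was at most 1.06. Within the normal diet, Ehhadh was 1.7-fold and Ppara 4.49-fold higher in replicate 2 than in replicate 1, against 4.9-fold for Alb, while Vnn1 had a ratio of 1.39 on 4 and 3 counts. Replicate 2 of the high fat diet differed 1.85-fold in Alb from replicate 2 of the normal diet, less than the group means did (3.27-fold from the fit). Between these libraries Vnn1 differed 32.5-fold and Acnat2 33.3-fold, Fabp1 2.34-fold, Ehhadh 1.55-fold and Ppara 1.34-fold. These are ratios of single libraries that are not paired, and they have no replicate error. High fat diet replicate 2 was also the lowest library of its diet for each of these members. In normal diet replicate 2, Vnn1 held 4 counts and Acnat2 held 2. A fit with log2 Alb as a covariate gave log2 fold changes for diet of 4.42 ± 0.56 for Vnn1, 3.2 ± 0.91 for Acnat2, 0.94 ± 0.37 for Ehhadh and 0.63 ± 0.34 for Acot1 (SE). The corresponding value was 0.21 ± 0.14 for Fabp1, 0.22 ± 0.47 for Pdk4, -0.15 ± 0.21 for Acot2 and -0.12 ± 0.47 for Ppara. Because Alb did not overlap between the diets, this fit separates diet and Alb poorly. It called 0 of all genes at an adjusted p of 0.05 by edgeR, with 935 genes at an unadjusted p under 0.05.

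**Figure D3:**
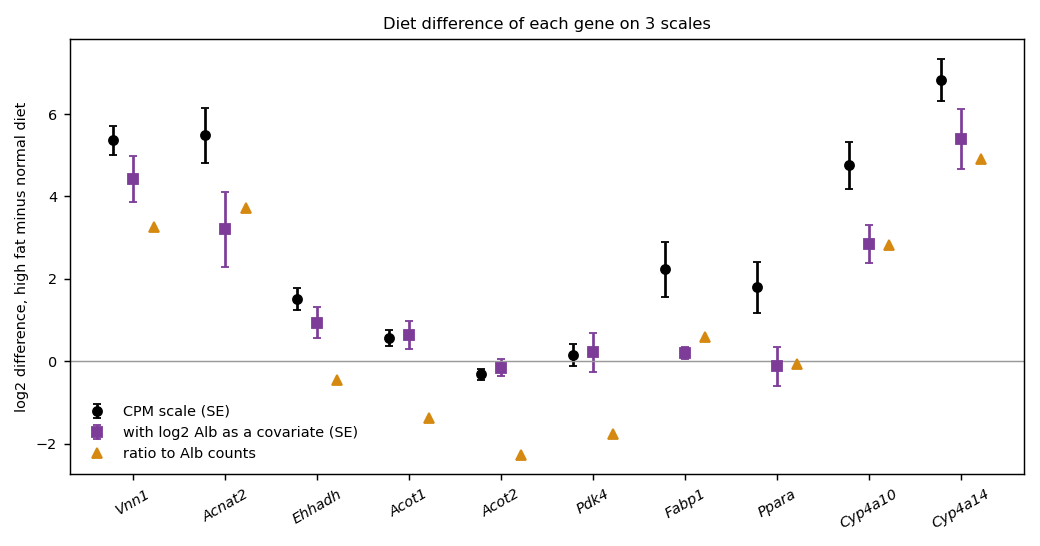
Difference between the diets in log2 units (vertical axis) for each gene on the CPM scale, with log2 Alb as a covariate (bars are SE for both) and as the ratio to Alb counts, for the 8 genes and for Cyp4a10 and Cyp4a14. Vnn1, Acnat2 and both cytochromes stay above 2 on all 3 scales, while Ppara drops from 1.8 to near 0.

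Cyp4a10 and Cyp4a14, cytochrome P450 fatty acid hydroxylases that are standard readouts of the receptor, were set beside the 8 genes. Cyp4a10 rose from 0.974 ± 0.539 to 26.5 ± 14.3 CPM and Cyp4a14 from 0.413 ± 0.285 to 46.7 ± 19.0 CPM (SD, n = 3), with edgeR adjusted p-values of 0.0420 and 0.0244. Normal diet replicates 1 to 3 held 8, 28 and 21 counts of Cyp4a10 and 6, 14 and 4 of Cyp4a14. Both genes thus passed the low-count filter only with the high fat diet libraries. With 1 library left out, the log2 fold change of Cyp4a10 lay between 4.2 and 5.17 and passed the threshold only without normal diet replicate 2, and that of Cyp4a14 lay between 6.42 and 7.50 and passed only without normal diet replicate 2 or high fat diet replicate 1. Their log2 ratios to Alb differed by 2.82 and 4.9 between the diets, beside 3.26 for Vnn1 and 3.71 for Acnat2. Of the 100-base windows of Cyp4a10 transcripts, 12.2% (256 of 2106) also occur in other genes, mostly Cyp4a32, so Cyp4a10 has the same uncertainty as Acnat2, and none of the 2500 windows of Cyp4a14 does.

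For comparison of levels between genes, the deposited FPKM values, which are per length, were used. On the high fat diet the order was Fabp1 (275 ± 102 FPKM), Acot1 (51.1 ± 5.1), Acot2 (12.1 ± 0.573), Ehhadh (8.54 ± 2.19), Pdk4 (6.48 ± 0.497), Vnn1 (3.6 ± 1.03), Acnat2 (2.91 ± 1.13) and Ppara (2.0 ± 1.15), each an FPKM mean with SD and n = 3. The neighbours Ehhadh and Pdk4, Vnn1 and Acnat2, and Acnat2 and Ppara did not differ beyond their SDs. On the normal diet Fabp1 (58.1 ± 39.5 FPKM) and Acot1 (34.1 ± 8.54) could not be ordered, and Acot2 (14.7 ± 2.19), Pdk4 (5.75 ± 2.18) and Ehhadh (2.95 ± 0.907) followed. Ppara (0.568 ± 0.345 FPKM), Vnn1 (0.0837 ± 0.0214) and Acnat2 (0.061 ± 0.0601) were at the bottom.

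The genes whose profile over the 6 libraries was nearest to each member were sought among 10534 genes with a mean of at least 5 CPM, by the root mean square difference of centred log2 CPM. Vnn1 was nearest to Cyp4a10 (0.44) and Dio1 (0.45), and Acnat2 to Cyp4a10 (0.32) and Serpina6 (0.54). Adh1 was near to Fabp1 (0.09), and Ppara was nearest to Dmgdh (0.16) and Mug1 (0.19), and Ehhadh to Abcb4 (0.17) and Apoc2 (0.19). Acot1 was nearest to Nnt (0.08) and Il18 (0.08), Acot2 to Tmem37 (0.02) and Cd38 (0.06), and Pdk4 to Atp2a3 (0.05) and Agap2 (0.07). The distance of a member to Alb on the same measure was 0.27 for Ppara and 0.34 for Fabp1, 0.64 for Ehhadh, and between 1.08 and 1.55 for the other 5. These distances describe 6 libraries and share their scaling.

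Other known targets of the receptor, 61 genes that are neither members nor cytochromes, were examined in 4 lists. Of the 57 tested, 5 were called higher by edgeR and 0 lower, where 39 had an unadjusted p under 0.05 in the higher direction and 1 in the lower. Over all genes, edgeR called 0.446% higher and 0.188% lower, and an unadjusted p under 0.05 was found for 10.2% in the higher and 8.4% in the lower direction. The median log2 fold change was 0.57, against -0.00 over all genes and 1.66 over the 8 members. DESeq2 called 28 of the 57 higher and limma voom 4. The edgeR count was 23 without normal diet replicate 2 (21 higher and 2 lower), 1 (Cd36) without either high fat diet replicate 1 or normal diet replicate 3, and 0 without any of the other 3 libraries, which left between 32 and 38 at an unadjusted p under 0.05 in the higher direction. Over all genes, edgeR called 1385 without normal diet replicate 2 and between 0 and 22 without any other library. Relative to Alb, the median log2 difference of the 57 was -1.4, and 7 of them, Acot3, Cidec, Acaa1b, Slc27a2, Plin4 and Gpd1 among these, were above 0.

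The peroxisomal list, the pathway of Ehhadh, held 15 tested genes, of which edgeR called 0, with 12 at an unadjusted p under 0.05, all higher on the high fat diet. Hsd17b4, the other bifunctional enzyme of the peroxisome, stood at 250 ± 14.0 against 173 ± 31.6 CPM (SD, n = 3; a log2 difference of 0.53 ± 0.14, edgeR adjusted p of 0.123). Acaa1a, a thiolase of the last step, stood at 119 ± 10.4 against 96.5 ± 3.42 CPM (0.30 ± 0.09, edgeR adjusted p of 0.141). The log2 fold change of Ehhadh, 1.51, was above those of 13 of these 15 genes, the others being Acot3 at 4.82 and Acaa1b at 3.15.

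Of 17 tested genes of mitochondrial oxidation and ketone body production, 1 was called. Hadha, a subunit of the mitochondrial trifunctional protein, rose from 125 ± 3.5 to 174 ± 4.39 CPM (SD, n = 3; a log2 difference of 0.47 ± 0.07, edgeR adjusted p of 0.0436). Acadvl, Eci1 and Acaa2, enzymes of the same chain-shortening cycle, had log2 fold changes of 0.45 ± 0.09, 0.85 ± 0.14 and 0.98 ± 0.21 and did not pass the threshold (edgeR adjusted p of 0.0678, 0.0584 and 0.0908).

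Of 19 tested genes of fatty acid uptake, activation, storage and lipolysis, 3 were called. Cd36, a fatty acid transporter and scavenger receptor that macrophages also carry, rose from 176 ± 20.7 to 596 ± 87.1 CPM (SD, n = 3; a log2 difference of 1.76 ± 0.14, edgeR adjusted p of 0.0231). Slc27a1, a fatty acid transport protein, rose from 34.8 ± 6.9 to 76.6 ± 6.43 CPM (1.14 ± 0.15, edgeR adjusted p of 0.0430). Cidec, a protein of lipid droplets, rose from 0.0831 ± 0.103 to 2.88 ± 1.28 CPM (4.99 ± 0.75, edgeR adjusted p of 0.04996), and it missed the threshold under median-ratio scaling and under limma voom. Cidec held 1, 0 and 4 counts in the normal diet libraries, so it passed the low-count filter through the high fat diet libraries. G0s2, an inhibitor of triglyceride lipase, stood at 26.0 ± 3.98 against 8.74 ± 3.54 CPM and did not pass (1.57 ± 0.31, edgeR adjusted p of 0.0800). With log2 Alb as a covariate the log2 fold changes of Cd36 and Slc27a1 were 1.86 ± 0.25 and 1.07 ± 0.27 (SE). These were close to those without it, as was found for Acot1 and Pdk4 among the members. Those of Cidec and of Angptl4, described next, were lower than without it, at 3.58 ± 1.43 and 1.02 ± 0.17. For Cidec the SE was about as large as the drop. That fit separates diet and Alb poorly and called 0 of all genes at an edgeR adjusted p of 0.05. Among 6 tested secreted and regulatory targets, Angptl4, an inhibitor of lipoprotein lipase, rose from 11.0 ± 2.18 to 30.4 ± 2.76 CPM (1.47 ± 0.17, edgeR adjusted p of 0.0351). Creb3l3, a transcription factor of liver (1.27 ± 0.47), the coactivator Ppargc1a (1.46 ± 0.47) and Klf11 (-0.35 ± 0.12) were not called, with edgeR adjusted p-values of 0.223, 0.175 and 0.187. Ppargc1a held 6, 5 and 13 counts in the normal diet libraries and passed the low-count filter only with the high fat diet libraries. Fgf21, Fbp2, Ucp3 and Cidea were not among the genes tested.

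**Figure D4:**
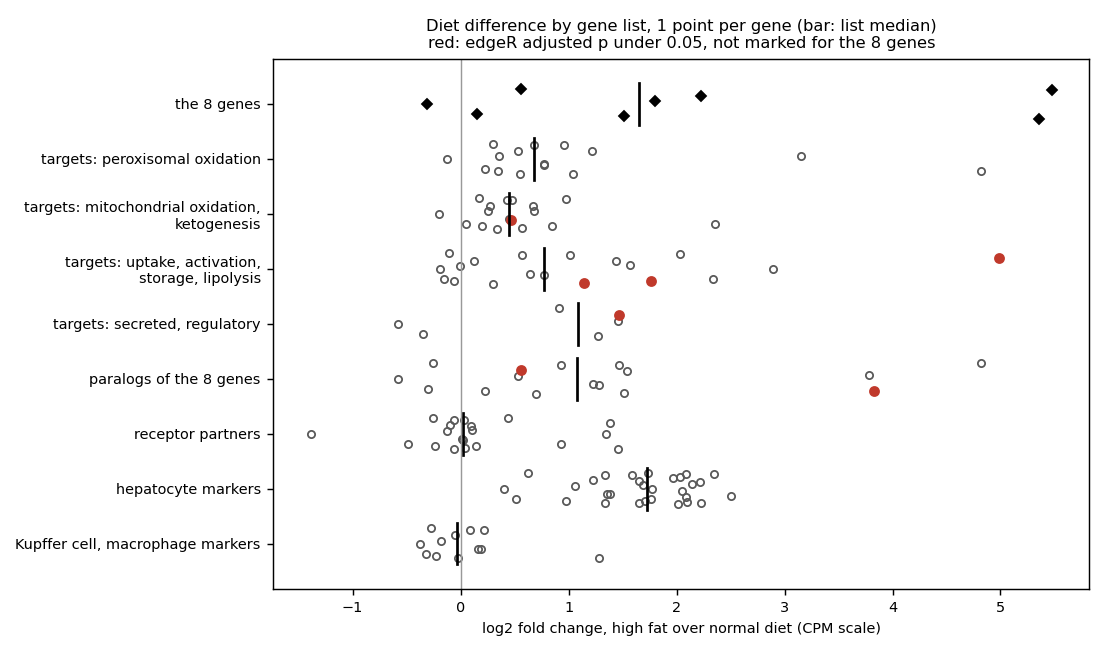
Log2 fold change of high fat over normal diet (horizontal axis, CPM scale) for each gene of each list, with a vertical bar at the list median and red points for genes with an edgeR adjusted p under 0.05, which are not marked for the 8 genes themselves. Vnn1 and Acnat2, chosen with their diet differences known, lie above 5, and the hepatocyte markers range from 0.40 to 2.5.

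Family members of the 8 genes were compared with them, using 16 tested paralogs, of which 2 were called. Fabp2, the intestinal fatty acid binding protein, rose from 0.531 ± 0.372 to 7.61 ± 2.38 CPM (SD, n = 3; a log2 difference of 3.83 ± 0.54, edgeR adjusted p of 0.0439, missed under limma voom), and Pdk1, another pyruvate dehydrogenase kinase, from 26.5 ± 1.22 to 39.1 ± 1.37 CPM (0.56 ± 0.08, edgeR adjusted p of 0.0431). Acot3, a peroxisomal thioesterase of the family of Acot1 and Acot2 that is counted among the targets too, stood at 1.12 ± 0.554 against 0.0334 ± 0.0289 CPM (4.82 ± 0.76, edgeR adjusted p of 0.0536). Fabp3 stood at 1.01 ± 0.176 against 0.0687 ± 0.0596 CPM (3.78 ± 0.64, edgeR adjusted p of 0.0610). The normal diet libraries held 1, 0 and 1 counts of Acot3 and 2, 2 and 0 of Fabp3. Acot3 and Fabp3 thus passed the low-count filter through the high fat diet libraries. Fabp2, with 3, 17 and 11 counts in normal diet replicates 1 to 3, also passed it only with the high fat diet libraries. Vnn3, the paralog of Vnn1, stood at 7.9 ± 2.81 against 3.37 ± 0.337 CPM, a log2 fold change of 1.23 ± 0.28 with an edgeR adjusted p of 0.0960. Vnn3 was named after its values were seen. Of the 16 paralogs, edgeR called 8 without normal diet replicate 2 (7 higher, 1 lower) and 0 without any of the other 5 libraries in turn, which left between 9 and 11 at an unadjusted p under 0.05 in the higher direction, and DESeq2 called 9. Those 5 edgeR fits called between 0 and 22 of all genes.

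The receptor's partners, coregulators and neighbouring nuclear receptors gave 20 tested genes, of which edgeR called 0, while at an unadjusted p under 0.05 there were 5 higher and 3 lower. DESeq2 called 3 higher and 2 lower, limma voom 0, and edgeR 2 higher and 2 lower without normal diet replicate 2. Rxra, the partner with which the receptor binds DNA, stood at 603 ± 38.6 CPM in high fat diet mice and 595 ± 155 CPM in normal diet mice (SD, n = 3; a log2 difference of 0.02 ± 0.19, edgeR adjusted p of 0.970). Ncor1, a corepressor, stood at 210 ± 11.9 against 209 ± 4.87 CPM, and Nr1h3, a nuclear receptor for oxysterols that macrophages express, at 463 ± 39.8 against 432 ± 105 CPM. The signs of these 3 differences turn under some settings. Pparg, the receptor's relative in fat cells and macrophages, stood at 26.0 ± 3.67 against 13.7 ± 2.96 CPM (0.93 ± 0.19, edgeR adjusted p of 0.0818). Ppard, the third relative, stood at 37.1 ± 0.98 against 44.6 ± 7.95 CPM (-0.26 ± 0.13, edgeR adjusted p of 0.348). Its log2 fold change turned to 0.02 ± 0.19 with log2 Alb as a covariate, and edgeR called it lower without normal diet replicate 2. Pparg and Ppard were named after their values were seen.

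When the libraries were scaled to the summed counts of the 30 hepatocyte markers in place of their totals, the median gene moved by -2.23 on the log2 scale, and edgeR called 86.4% of genes, 0.216% higher and 86.1% lower. These 12402 calls dropped to 1, 1 and 3 without high fat diet replicate 1, 2 or 3, where 2743, 5480 and 5267 genes had an unadjusted p under 0.05. Without normal diet replicate 1, 2 or 3 there were 11867, 13291 and 12602 calls. Of the 57 other targets, Acot3 and Cidec were called higher and 23 lower, and 0 were called in either direction without any 1 of the high fat diet libraries (1 or 2 higher and 3 to 6 lower at an unadjusted p under 0.05). Without normal diet replicate 1, 2 or 3, the targets called higher numbered 3, 1 and 1, and those called lower 23, 36 and 28. Acot3 held 1, 0 and 1 counts and Cidec 1, 0 and 4 in the normal diet libraries. Like Vnn1 and Acnat2, these 2 targets passed the low-count filter through the high fat diet libraries. The authors' deposited table gives log2 fold changes of 3.97 for Vnn1 and 3.34 for Acnat2, nearer to 0 than the values from the counts. It gives 1.32 for Ehhadh, 1.17 for Ppara, 1.12 for Fabp1, 0.51 for Acot1, 0.13 for Pdk4 and -0.30 for Acot2, and 1.25 for Alb. These too were nearer to 0 than the values from the counts. Fabp1 was below Alb in the authors' values and above it from the counts (2.23 against 1.71).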

How the data were processed

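Per the labels' protocols, oligo(dT) beads selected the mRNA, and random hexamers primed the cDNA. The authors deposited 1 table with raw read counts, a normalised signal, FPKM and their own log2 fold changes and p-values. The mm10 build, DESeq, edgeR, featureCounts, HISAT2, STAR, STAR-Fusion and StringTie are named per the submitters' processing notes, with roles and versions not given in the sources used here. Depth was 17470439 to 23610956 counts, so genes near 0 rest on a handful of reads, and intervals cover counting error only.

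Groups follow the treatment labels, and replicates are numbered in accession order and pair nothing. The counts of all 14918 genes were tested in edgeR 4.0.16 under R 4.3.3 (TMM, default low-count filter, robust quasi-likelihood F test, Benjamini-Hochberg over 14361 genes, threshold 0.05). The common biological coefficient of variation was 20.9%. An SE is the log2 fold change over the square root of F. The 8 genes and the lists were chosen with earlier results of these data known, so no p-value is given for the 8 and their called counts are no test of them. Ratios to Alb used raw counts with 0.5 added. Symbols came from GENCODE by Ensembl ID (14842 of 14918 matched). Promoters are RefSeq's, GRCm38.p6. In each other list the 4 genes of smallest p were named where any was called, otherwise the 3 most abundant, along with 2 nearest profiles per member. Others are said to be named later. Alternatives were DESeq2 1.42.0, limma 3.58.1 voom, other scalings and filters, log2 Alb as a covariate and leaving out libraries. The test was checked on simulated counts, with the same dispersion for every gene, below the common one of these data. No changed genes at low levels were simulated, so the check does not cover genes near 0. Some named genes are not reported here.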

Additional observations from a re-analysis of the deposited data

How the results depend on the processing

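At an adjusted p of 0.05 edgeR called 91 of 14361 genes with all libraries and between 0 and 1385 with 1 library left out (1385 of 14669), DESeq2 1206 of 14918, and edgeR 0 with log2 Alb as a covariate, and 0 without replicate 1 of both diets (1384 at an unadjusted p under 0.05), a setting chosen after seeing the data. Leaving out normal diet replicate 2 gave the 1385. For the other targets (5) the counts were 0 with the covariate, 28 under DESeq2, 0 without both replicates 1 and 0 to 23 with 1 library left out. For the partners (0) they were 5 under DESeq2 and 0 to 4, and for the paralogs (2) 0 with the covariate, 9 under DESeq2, 1 under voom, 0 without both replicates 1 and 0 to 8. For the hepatocyte markers (0) DESeq2 called 15. The median of the 8 genes (1.66) was 1.03 under a 5 CPM filter, which drops Ppara and Acnat2, 0.42 with the covariate, 0.98 without both replicates 1 and 1.26 to 2.0 with 1 library left out. Relative to Alb it was -0.26, and -0.47 to 0.06 with 1 library left out, turning to 0.06 without normal diet replicate 1. Targets called higher per hepatocyte RNA (2) numbered 0 to 3 with 1 library left out. Signs turned for Pdk4 (-0.09 to 0.46 with 1 library left out, -0.09 without normal diet replicate 2), Ppara (-0.12 with the covariate, ratio -0.28 to 0.13 with 1 library left out), the Ehhadh ratio (-0.82 to 0.12, the latter without normal diet replicate 1) and Creb3l3 (-0.10 with the covariate). They also turned for genes near 0, with these log2 fold changes over the libraries left out in turn: -0.14 to 0.22 for Rxra (-0.17 with the covariate, -0.08 without both replicates 1), -0.05 to 0.29 for Nr1h3 (-0.03 with the covariate), -0.04 to 0.03 for Ncor1 (-0.01 without a filter), -0.04 to 0.19 for Cd5l, -0.18 to 0.12 for Csf1r and -0.42 to 0.04 for Vsig4. Ppard turned to 0.02 with the covariate. The cause was not tested. No paired analysis was possible because the labels give no replicate numbers shared between the diets.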
